A study of Mus musculus with 8 samples.

Results

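The genes described here are 8 enzymes of cholesterol synthesis, Hmgcs1, Mvd, Idi1, Fdps, Fdft1, Sqle, Nsdhl and Dhcr7. They were chosen by name in the deposited tables of nuclear RNA, and all 8 were found among 48676 rows with 44363 distinct names. Hmgcs1 had 2 rows, with means over the libraries of 37.3 and 34.3 RPKM, and the row with the higher mean was used. RPKM is a read number scaled to gene length and to the reads mapped, so levels of different genes can be set side by side. The working name of the group also mentions uptake, but none of the 8 genes takes up cholesterol. Regulators of the pathway are described after the 8 genes.

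The cells were NIH3T3, an established line of mouse embryonic fibroblasts, grown in serum, and the RNA came from nuclear pellets and was depleted of ribosomal RNA. Each of 4 groups had 2 libraries: untreated cells, cells heat-shocked at 44 °C, cells in 200 mM KCl (osmotic stress) and cells in 0.2 mM H2O2 (oxidative stress). The labels give 2 h for the stresses unless stated otherwise, and no genetic change in any group. Whether the paired libraries of a group were grown separately is not stated, and the p-values below therefore gauge only variation among these libraries, possibly technical. A series of 1 cell line gives no measure of how other fibroblasts respond, and in bulk RNA fewer cells of a type cannot be told apart from less RNA per cell.

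Cholesterol is built from acetyl-CoA by way of mevalonate, isoprenoid diphosphates, squalene and a series of sterols. The genes of this pathway are known as targets of the transcription factor SREBP-2. SREBP-2 is held in the endoplasmic reticulum with its escort SCAP and the INSIG proteins, and it is cut and released to the nucleus when sterols are scarce. Its sites, called sterol regulatory elements, usually lie close to the start of transcription beside sites for the factors NF-Y and SP1.

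Promoter sequence was at hand for 5 of the 8 genes, and Fdps, Fdft1 and Sqle are named only. The 5 are all genes of the group with an entry in the promoter table, and they are shown because the group shares a known regulator that binds there. Each is the 250 bases before the RefSeq gene start in the mouse build GRCm38.p6, written 5′ to 3′ on the gene's strand. Capitals mark the sterol regulatory element TCACNCCAC and the NF-Y box CCAAT, or ATTGG where it lies on the other strand.
Hmgcs1: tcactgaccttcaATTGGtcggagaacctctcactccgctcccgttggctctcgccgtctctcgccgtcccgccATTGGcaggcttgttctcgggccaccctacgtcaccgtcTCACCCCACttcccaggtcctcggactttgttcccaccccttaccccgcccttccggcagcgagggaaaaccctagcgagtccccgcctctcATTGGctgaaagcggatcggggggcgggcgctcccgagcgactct
Mvd: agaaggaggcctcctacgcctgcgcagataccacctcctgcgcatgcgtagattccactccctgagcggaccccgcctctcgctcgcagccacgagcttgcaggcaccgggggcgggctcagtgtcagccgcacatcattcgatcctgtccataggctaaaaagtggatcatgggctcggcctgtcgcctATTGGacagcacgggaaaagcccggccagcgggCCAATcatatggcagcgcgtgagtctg
Idi1: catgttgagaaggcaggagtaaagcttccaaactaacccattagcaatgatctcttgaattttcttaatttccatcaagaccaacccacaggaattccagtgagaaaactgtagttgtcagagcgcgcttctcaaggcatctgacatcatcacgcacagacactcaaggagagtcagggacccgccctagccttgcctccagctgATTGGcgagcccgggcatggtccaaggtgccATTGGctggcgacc
Nsdhl: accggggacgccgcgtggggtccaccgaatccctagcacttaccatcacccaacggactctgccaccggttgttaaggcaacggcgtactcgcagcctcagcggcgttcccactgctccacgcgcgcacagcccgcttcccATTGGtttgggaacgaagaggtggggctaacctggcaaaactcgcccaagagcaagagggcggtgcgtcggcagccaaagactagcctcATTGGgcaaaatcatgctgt
Dhcr7: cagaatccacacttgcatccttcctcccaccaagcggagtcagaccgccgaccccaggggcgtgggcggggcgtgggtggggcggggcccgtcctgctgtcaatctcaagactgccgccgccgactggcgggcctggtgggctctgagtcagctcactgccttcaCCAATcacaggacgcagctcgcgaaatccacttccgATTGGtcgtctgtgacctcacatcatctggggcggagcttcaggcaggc
These windows lie at chr13:119690101-119690350 (plus strand) for Hmgcs1, chr8:122443423-122443672 (minus strand) for Mvd and chr13:8885356-8885605 (plus strand) for Idi1. The Nsdhl window lies at chrX:72918271-72918520 and the Dhcr7 window at chr7:143829964-143830213, both on the plus strand. For Dhcr7, 3 promoters were listed, and the one with most GENCODE M21 transcript starts within 50 bases, 4 in all, was taken. No transcript of that annotation started within 50 bases of the Idi1 start used here.

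All 5 windows held at least 2 NF-Y boxes, with 3 in Hmgcs1, while 33.8% of 32851 mouse promoters of the same length held at least 1. The sterol regulatory element stood at 1 place, in Hmgcs1, from 137 to 129 bases before the start, and 1.05% of all promoters held it. The GC box GGGCGG, the core letters of SP1 sites, stood at 2 places in Hmgcs1, at 3 in Dhcr7 and at 1 in each of the other windows, against a share of 32.7% over all promoters. The E-box CACGTG stood in none of the 5, and 6.02% of all promoters held it. Both strands were searched and no match overlapped another. A window without a match says only that these letters are not in it.

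The libraries were checked before the genes were compared. RPKM summed to between 503400 and 771700 per library, apart from osmotic stress replicate 1 with 1943000, where 1 row, AC113316.1, held 1025000 RPKM and the nuclear RNA Malat1 was listed at 0. Values for osmotic stress are therefore followed by those without that library for the 8 genes and for the medians of other gene groups. The chaperone gene Hspa1a reached 283 and 252 RPKM in the heat-shocked libraries, and the untreated ones held 1.92 and 2.32 RPKM. All 9 fibroblast markers looked up were tested, and Col1a2 and Vim were each above 357 RPKM in every library, while Thy1 and Pdgfrb lay between 0.298 and 2.05 RPKM. After heat shock 2 of the 9, Fn1 and Sparc, fell, beside 4.08% of all tested rows called lower. Vim was at 1589 and 979 RPKM in untreated cells and at 561 and 514 RPKM after heat shock, and did not pass. In the deposited values the estimates were below 0 for 9 of the 9 after heat shock and under oxidative stress and for 8 of the 9 under osmotic stress. The medians were -0.54, -0.58 and -0.32, the last of which was -0.22 without osmotic stress replicate 1. Over all rows the medians were -0.09, -0.10 and 0.18 in the same order. Several markers overlapped with untreated cells, such as Col1a1 and Col1a2 after heat shock. Of 13 markers of hepatocytes, leukocytes, epithelium and endothelium, Ttr was at most 0.0141 RPKM in any library. Alb was at most 0.0241 RPKM, apart from 0.202 RPKM in oxidative stress replicate 1. Epcam was at most 0.0238 RPKM, apart from 0.125 RPKM in heat shock replicate 1. Some others were higher, such as Cyp7a1 at 0.197 to 0.596 RPKM and Lyz2 at 0.344 to 0.773 RPKM. The summed level of the 13 markers was 18.6 to 30.4 RPKM in untreated cells and 9.78 to 10 RPKM after heat shock. It was 20.7 to 21.3 RPKM under osmotic stress and 28.4 to 28.5 RPKM under oxidative stress, and nearly all of it was Cd68. Without Cd68 the sums were 1.61 to 1.78, 1.32 to 1.39, 1.98 to 2.16 and 3.25 to 4.41 RPKM in the same order. The part of these markers in the results below was not tested.

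In untreated cells the 8 genes covered a wide range of nuclear RNA levels. Sqle, the squalene epoxidase, was highest at 103.8 ± 17.6 RPKM (mean ± SD, n = 2 libraries here and below), above 96.2% of the tested rows. Hmgcs1 followed at 44.1 ± 1.18 RPKM, above 90.1% of rows. Fdps at 28.3 ± 4.86, Nsdhl at 26.6 ± 3.77, Fdft1 at 18.6 ± 2.33 and Mvd at 17.8 ± 1.32 RPKM came next. Dhcr7 and Idi1 were lowest at 8.20 ± 1.87 and 7.80 ± 0.953 RPKM, above 55.4% and 54.2% of rows, and their libraries overlapped. Summed over the 8 genes, the level was 255 ± 22.3 RPKM in untreated cells and 172 ± 22.1 RPKM after heat shock. It was 228 ± 13.3 RPKM under osmotic stress (237 RPKM in replicate 2 alone) and 165 ± 26.2 RPKM under oxidative stress. Sqle weighs most in these sums.

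**Figure D1:**
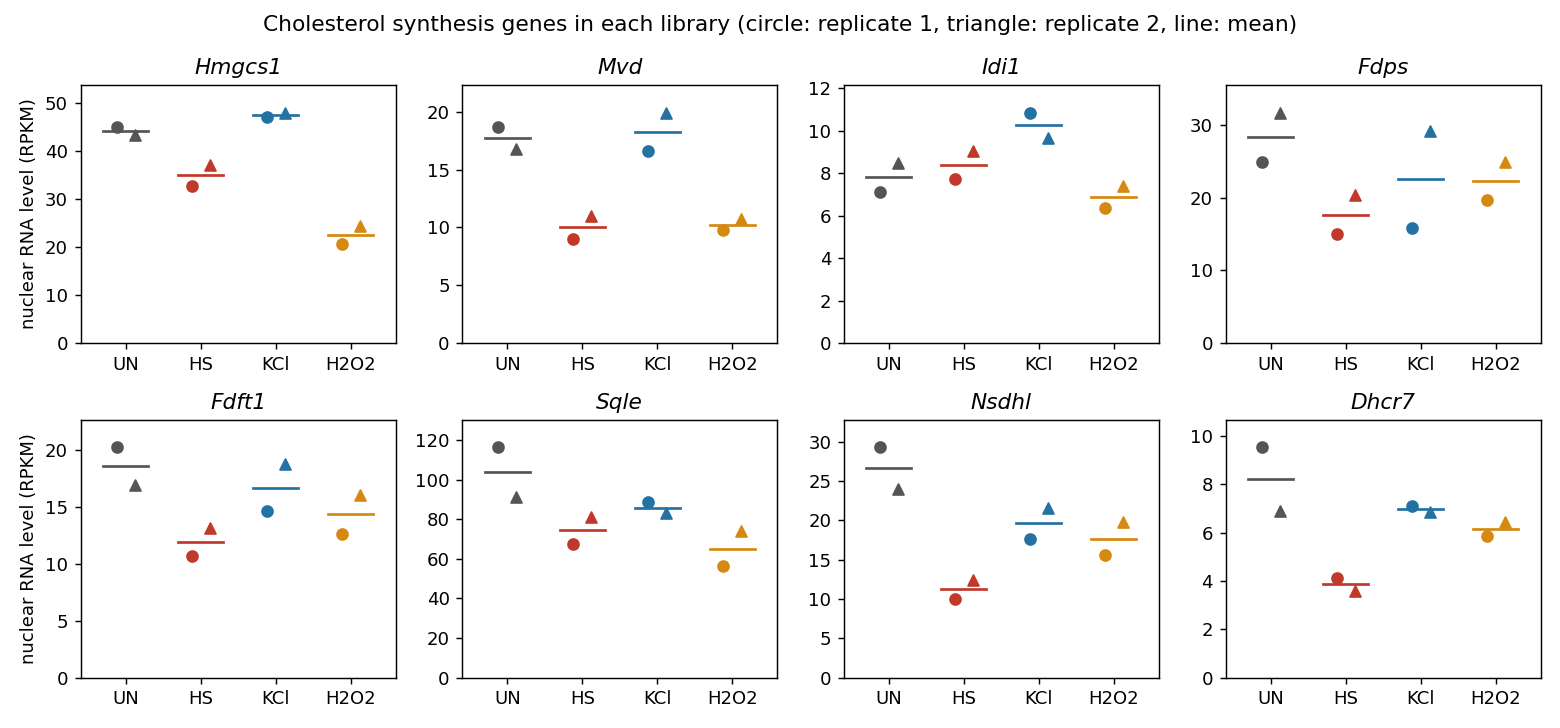
Nuclear RNA level in RPKM (y axis, from 0) of the 8 genes in untreated cells (UN), heat shock (HS), osmotic stress (KCl) and oxidative stress (H2O2). Circles are replicate 1, triangles replicate 2 and lines the mean of 2 libraries; Nsdhl, Dhcr7 and Mvd lie lowest or near lowest after heat shock, and Hmgcs1 lies lowest under oxidative stress.

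The plot of levels by library holds the values that follow, from the start of the pathway to its end. Tests were made with limma on log2(RPKM + 0.5), a scale that understates changes of low genes, over the 16056 rows that reached 0.5 RPKM in 2 or more libraries, and a row was called at an adjusted p under 0.05. All 8 genes passed this filter on low values.

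Hmgcs1 encodes HMG-CoA synthase, which makes the precursor of mevalonate. Its level was 45.0 and 43.3 RPKM in untreated cells, 32.8 and 37.1 RPKM after heat shock, 47.2 and 48.1 RPKM under osmotic stress, and 20.7 and 24.4 RPKM under oxidative stress. Both oxidative stress libraries lay below all other libraries, and the groups did not overlap in any pair. Hmgcs1 fell under oxidative stress to 0.51 times the untreated mean (log2 change -0.96, SE 0.14, limma adjusted p = 0.036). The change after heat shock was -0.33 (SE 0.14, limma adjusted p = 0.19) and under osmotic stress 0.11 (SE 0.14, limma adjusted p = 0.66). The other row of the name had lower levels, and with both rows summed the oxidative stress change was -0.96 (limma adjusted p = 0.04). In order of level, osmotic stress, untreated and heat shock were neighbours that did not pass the test, while heat shock was higher than oxidative stress by a log2 difference of 0.62 (SE 0.14, limma adjusted p = 0.032).

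Mvd encodes mevalonate diphosphate decarboxylase, which makes isopentenyl diphosphate, the building block of isoprenoids. Its level was 18.7 and 16.8 RPKM in untreated cells, 9.00 and 11.0 RPKM after heat shock, 16.6 and 20.0 RPKM under osmotic stress, and 9.79 and 10.7 RPKM under oxidative stress. The libraries formed a high pair of groups, untreated and osmotic stress, and a low pair, heat shock and oxidative stress, with overlap within each pair and none between them. Mvd fell after heat shock to 0.564 times the untreated mean (log2 change -0.80, SE 0.16, limma adjusted p = 0.039). The oxidative stress change was nearly as large at -0.77 (SE 0.16) and did not pass (limma adjusted p = 0.078).

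Idi1 encodes the isomerase that turns isopentenyl into dimethylallyl diphosphate. Its level was 7.13 and 8.48 RPKM in untreated cells, 7.72 and 9.04 RPKM after heat shock, 10.9 and 9.67 RPKM under osmotic stress, and 6.34 and 7.42 RPKM under oxidative stress. The osmotic stress libraries were the highest, and the untreated libraries overlapped with those of heat shock and of oxidative stress. Its log2 changes against untreated cells were 0.10 after heat shock, 0.38 (SE 0.16, limma adjusted p = 0.24) under osmotic stress and -0.17 under oxidative stress, and none passed. In the deposited values it was the only gene of the 8 with a heat shock mean above the untreated mean, and no neighbours in its order of levels passed the test.

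Fdps encodes farnesyl diphosphate synthase, whose product is the branch point towards sterols, dolichol, ubiquinone and protein prenylation. Its level was 24.9 and 31.8 RPKM in untreated cells, 15.0 and 20.4 RPKM after heat shock, 15.8 and 29.3 RPKM under osmotic stress, and 19.7 and 24.9 RPKM under oxidative stress. The osmotic stress libraries lay far apart, and heat shock alone stood clear of untreated cells. Its SE of 0.32 was the largest of the group, and the heat shock change of -0.67 did not pass (limma adjusted p = 0.24).

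Fdft1 and Sqle act next, as squalene synthase and squalene epoxidase. Fdft1 was at 20.2 and 16.9 RPKM in untreated cells, 10.7 and 13.2 RPKM after heat shock, 14.6 and 18.7 RPKM under osmotic stress, and 12.6 and 16.1 RPKM under oxidative stress. Sqle was at 116 and 91.4 RPKM in untreated cells, 67.6 and 81.3 RPKM after heat shock, 88.7 and 83.1 RPKM under osmotic stress, and 56.2 and 74.2 RPKM under oxidative stress. For both genes the heat shock and oxidative stress libraries lay below the untreated ones and overlapped with each other. Their log2 changes after heat shock were -0.62 (SE 0.20, limma adjusted p = 0.12) for Fdft1 and -0.47 (SE 0.20, limma adjusted p = 0.2) for Sqle. Under oxidative stress they were -0.37 (limma adjusted p = 0.41) and -0.67 (SE 0.20, limma adjusted p = 0.16), so neither gene passed in either comparison.

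Nsdhl encodes a sterol dehydrogenase that takes part in removing the methyl groups at carbon 4 of the sterol ring. Its level was 29.3 and 23.9 RPKM in untreated cells, 9.98 and 12.5 RPKM after heat shock, 17.6 and 21.6 RPKM under osmotic stress, and 15.6 and 19.8 RPKM under oxidative stress. The heat shock libraries were the lowest and the untreated libraries the highest, with osmotic and oxidative stress overlapping in between. Nsdhl fell after heat shock to 0.422 times the untreated mean (log2 change -1.21, SE 0.20, limma adjusted p = 0.024), the largest change of the 8 genes in that comparison. The changes under osmotic and oxidative stress were -0.43 (limma adjusted p = 0.26) and -0.58 (limma adjusted p = 0.21).

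Dhcr7 encodes 7-dehydrocholesterol reductase, which makes cholesterol in the last step of a branch of the pathway. Its level was 9.52 and 6.87 RPKM in untreated cells, 4.13 and 3.57 RPKM after heat shock, 7.08 and 6.85 RPKM under osmotic stress, and 5.86 and 6.44 RPKM under oxidative stress. The heat shock libraries lay below the other 6, and both osmotic stress libraries lay close to the lower untreated library. Dhcr7 fell after heat shock to 0.47 times the untreated mean (log2 change -0.98, SE 0.19, limma adjusted p = 0.033). It was at -0.20 under osmotic stress and -0.37 under oxidative stress, without passing (limma adjusted p = 0.54 and 0.36).

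Counted together after heat shock, 3 of the 8 genes fell, 0 rose and 5 did not pass, against 4.08% of all tested rows called lower and 2.54% called higher. The median log2 change of the 8 was -0.65, beside -0.09 over all rows. For 7 of the 8 the heat shock libraries lay below the untreated ones without overlap, as did 35.8% of all rows. The calls of Nsdhl, Dhcr7 and Mvd rest on all libraries of the comparison: without untreated replicate 1 or 2, or heat shock replicate 1 or 2, none of the 8 genes was called, with limma adjusted p of 0.068 to 0.18 for Nsdhl, 0.057 to 0.18 for Dhcr7 and 0.095 to 0.23 for Mvd. Without either oxidative stress library, which enters only the shared spread, 1 gene was called, Nsdhl with limma adjusted p of 0.045 and 0.046, while Dhcr7 had 0.064 and Mvd 0.072.

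Within each deposited table, which holds 1 library of every group, the heat shock change was larger in the first. Nsdhl was at -1.51 in the first table and -0.92 in the second, Dhcr7 at -1.11 and -0.86, and Mvd at -1.02 and -0.59 on the log2 scale. The direction was the same in both tables for each of these genes. The fibroblast markers Fn1 and Sparc fell in the same comparison by log2 changes of -1.61 and -1.21, and Cd68 by -1.32, and their part in the fall of the 3 sterol genes was not tested.

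Under osmotic stress none of the 8 genes was called by limma, against 0.43% of all rows called higher and 0.262% called lower. An unadjusted limma p under 0.05 was found for 0 of the 8, against 22.1% of all rows. The median log2 change of the 8 was -0.18, beside 0.18 over all rows. The largest values were 0.38 for Idi1 and -0.43 for Nsdhl with 95% intervals of -0.02 to 0.77 and -0.91 to 0.05, which include 0. Without osmotic stress replicate 1, the library with the dominant row, again 0 of the 8 were called and the median was 0.04, with Fdps at 0.06 and Fdft1 at 0.02 in place of -0.38 and -0.16. Nsdhl was then at -0.29, Idi1 at 0.30, Sqle at -0.31, Dhcr7 at -0.23, Mvd at 0.16 and Hmgcs1 at 0.12.

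Under oxidative stress 1 of the 8 genes, Hmgcs1, fell, 0 rose and 7 did not pass, against 0.193% of all rows called lower and 1.29% called higher. All 8 changes were below 0, from -0.96 for Hmgcs1 to -0.17 for Idi1 (Idi1 turned to 0.015 with columns brought to a common sum), with a median of -0.48 beside -0.10 over all rows. For 6 of the 8 the oxidative stress libraries lay below the untreated ones without overlap, as did 30.1% of all rows. The call of Hmgcs1 was lost without any 1 of the 8 libraries, with limma adjusted p of 0.21 and 0.15 without untreated replicate 1 or 2, 0.17 and 0.054 without oxidative stress replicate 1 or 2, 0.094 without either heat shock library and 0.062 and 0.061 without osmotic stress replicate 1 or 2. The change itself stayed between -1.07 and -0.84 in those fits, and was -1.10 in the first table and -0.82 in the second. Cdh1 and Pecam1, markers of epithelium and endothelium, were at 0.663 to 1.01 and 0.515 to 0.887 RPKM under oxidative stress and at most 0.134 RPKM in the other libraries. Cdh1 was called higher under oxidative stress, but both genes passed the filter on low values only through the oxidative stress libraries. Krt8 of epithelium was also highest there, at 0.447 and 0.321 RPKM against 0.224 and 0.183 RPKM in untreated cells. Epcam of epithelium was at 0.0063 and 0 RPKM under oxidative stress. Cdh5 of endothelium was at 0.28 and 0.454 RPKM under oxidative stress and 0.6 and 0.349 RPKM in untreated cells. The part of these markers in the fall of Hmgcs1 was not tested.

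**Figure D2:**
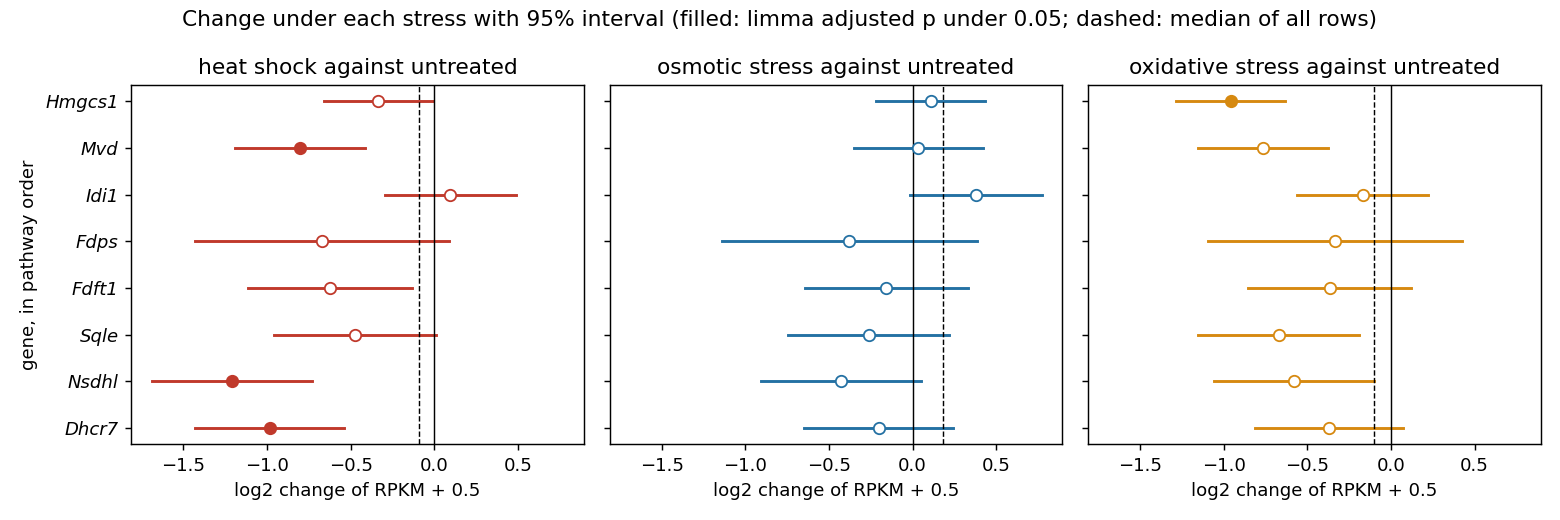
Log2 change of RPKM + 0.5 (x axis) of each gene (y axis, in pathway order) under heat shock, osmotic stress and oxidative stress against untreated cells, from a fit of 8 libraries. Points are estimates and bars 95% intervals, filled points have limma adjusted p under 0.05, and the dashed line is the median of all tested rows; Mvd, Nsdhl and Dhcr7 are filled after heat shock, and Hmgcs1 under oxidative stress.

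In the plot of changes with their intervals, the called falls were Mvd, Nsdhl and Dhcr7 after heat shock, and Hmgcs1 under oxidative stress. The Mvd change was nearly the same in both stresses, at -0.80 and -0.77. A call in 1 stress and not in another does not show that they differ, so the stresses were also compared with each other. Heat shock was lower than osmotic stress for Mvd, by -0.84 (SE 0.16, limma adjusted p = 0.031), and for no other of the 8, against 8.2% of all rows called in either direction. The median over all rows in that comparison was -0.26, and 50.2% of rows had both heat shock libraries below both osmotic stress libraries. The Mvd call was lost under each of the 4 other scalings, with -0.52 for median of ratios (limma adjusted p = 0.13), -0.58 for quantile normalization (limma adjusted p = 0.14), -0.14 for the sum without the highest row (limma adjusted p = 0.75) and 0.26, the opposite sign, for the common sum (limma adjusted p = 0.72). Dhcr7 and Nsdhl were both at -0.78 in that comparison, with limma adjusted p of 0.052 and 0.063, and at -0.76 and -0.92 without osmotic stress replicate 1 (limma adjusted p = 0.16 and 0.11). Without osmotic stress replicate 1 the Mvd difference was -0.97 (limma adjusted p = 0.071), and its call was also lost without each of the other 7 libraries in turn (limma adjusted p of 0.052 to 0.2).

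Heat shock against oxidative stress gave 1 call, Hmgcs1, higher after heat shock, against 14.2% of all rows called and a median of -0.01 over all rows. This is a test of the difference between the stresses for that gene. The Hmgcs1 difference was 0.63 with median of ratios, 0.59 with quantile normalization and 0.98 with the sum without the highest row, all called. With the common sum it was 0.90 and not called (limma adjusted p = 0.51). Nsdhl and Dhcr7 were lower after heat shock than under oxidative stress by -0.63 (95% interval -1.11 to -0.15) and -0.61 (-1.06 to -0.17). With limma adjusted p of 0.081 and 0.073 in the deposited values, a difference for them was not called. Over 13 alternatives other than leaving out 1 library, Dhcr7 was called in 2 and Nsdhl in 0. For Mvd the difference was -0.04 with a 95% interval of -0.42 to 0.35. The Hmgcs1 call was lost without heat shock replicate 1 or 2, or oxidative stress replicate 1 or 2, where the difference ranged from 0.51 to 0.74 and the limma adjusted p reached 0.16.

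Osmotic against oxidative stress gave 2 calls, Hmgcs1 higher under osmotic stress by 1.07 (SE 0.14, limma adjusted p = 0.015) and Mvd by 0.80 (SE 0.16, limma adjusted p = 0.027), against 19.3% of all rows called and a median of 0.27 over all rows. Idi1 was at 0.55 (limma adjusted p = 0.06), and at 0.47 without osmotic stress replicate 1 (limma adjusted p = 0.21). Both calls were lost without osmotic stress replicate 1, with values of 1.08 (limma adjusted p = 0.078) and 0.93 (limma adjusted p = 0.093), and without oxidative stress replicate 1, with 0.95 (limma adjusted p = 0.088) and 0.74 (limma adjusted p = 0.12). The Mvd call was also lost without either heat shock library, osmotic stress replicate 2 or oxidative stress replicate 2 (limma adjusted p of 0.058 to 0.079). The Mvd call was lost under each of the 4 other scalings. Its difference was 0.49 with median of ratios, 0.46 with quantile normalization and with the sum without the highest row, and -0.025 with the common sum. For Hmgcs1 the difference was 0.75 with median of ratios and 0.72 with quantile normalization, both called. It was 0.72 with the sum without the highest row and 0.21 with the common sum, neither called. The 3 comparisons between stresses share libraries with each other and with the comparisons to untreated cells, and their values are not independent.

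Of the 12 other synthesis genes looked up, 1 fell after heat shock, 0 passed under osmotic stress and 0 under oxidative stress, with medians of -0.44, -0.04 and -0.40. A single call in 12 genes stands beside the 4.08% of all rows called lower after heat shock. Without osmotic stress replicate 1 the osmotic stress median was 0.05. The gene that fell was Ebp, the sterol isomerase that acts between Nsdhl and Dhcr7, at 47.2 and 38.7 RPKM in untreated cells and 22.5 and 20.3 RPKM after heat shock. Its log2 change was -0.98 (SE 0.14, limma adjusted p = 0.019), and the call was lost without any 1 untreated or heat shock library (limma adjusted p of 0.053 to 0.13). The methylsterol oxidase gene had rows under its newer symbol Msmo1 and its older symbol Sc4mol, with unlike values. Msmo1 was at 96.2 and 86.3 RPKM in untreated cells and 67.8 and 85.2 RPKM after heat shock, while Sc4mol was at 11.2 and 15.7 RPKM and 24.4 and 23.7 RPKM. The gene was counted once, by Msmo1.

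**Figure D3:**
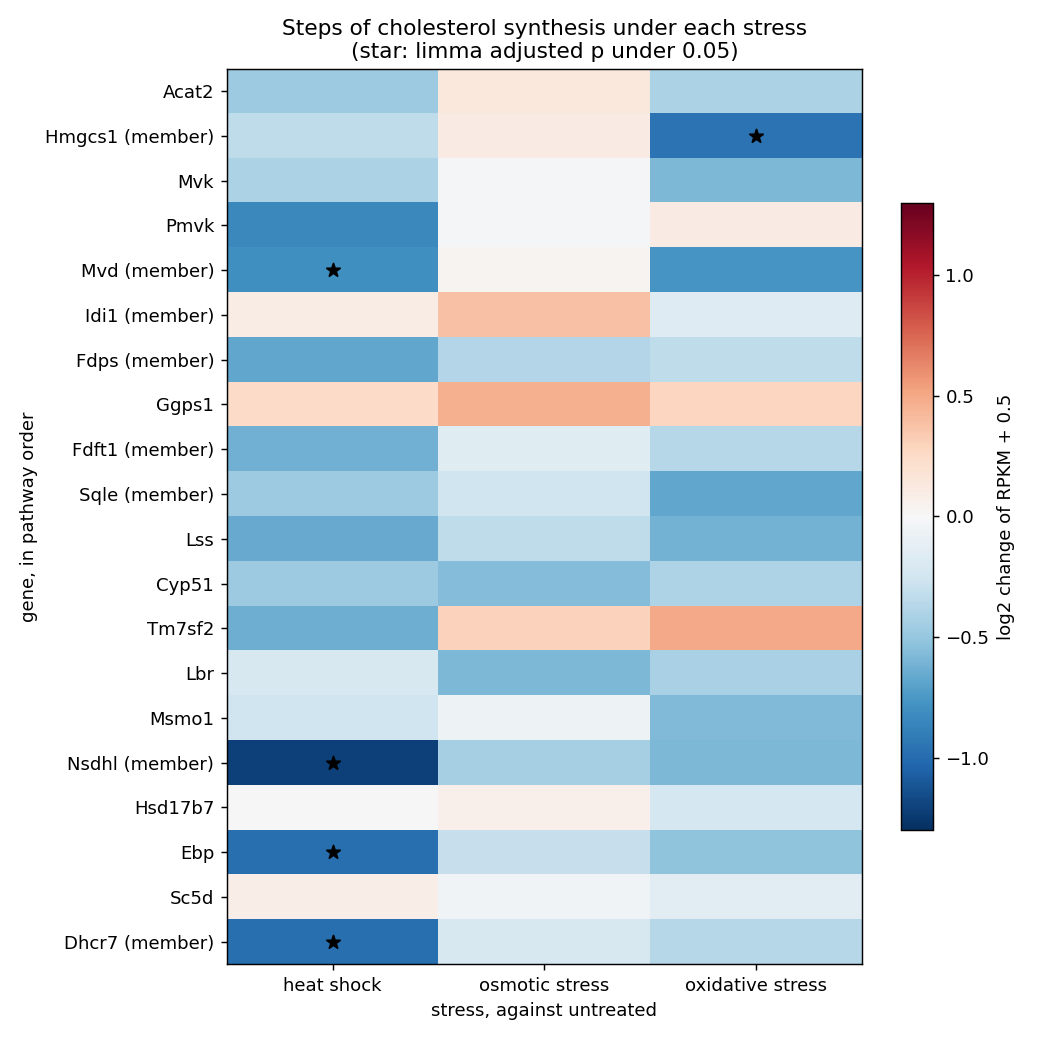
Log2 change of RPKM + 0.5 (colour, blue lower and red higher than untreated) of 20 synthesis genes in pathway order (y axis, the 8 described genes marked as members) under each stress (x axis). Stars mark limma adjusted p under 0.05; 4 stars stand in the heat shock column, at Mvd, Nsdhl, Ebp and Dhcr7, 0 in the osmotic stress column and 1, at Hmgcs1, in the oxidative stress column.

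The map of pathway steps shows that 3 of the 4 heat shock falls, Nsdhl, Ebp and Dhcr7, lie among the sterol steps after lanosterol. Those steps also hold Cyp51, Tm7sf2, Lbr, Msmo1, Hsd17b7 and Sc5d, which did not pass. Many of the 20 genes shown thus lie there. These positions are a description of 20 genes and were not tested.

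Of 13 genes of uptake, SREBP control and intracellular transport, 13 were tested and 1 fell after heat shock, beside 4.08% of all rows called lower. There were 0 calls under osmotic or oxidative stress. The medians were -0.05, 0.06 and -0.34, the second of which was -0.03 without osmotic stress replicate 1. The gene that fell was Npc2, which carries cholesterol out of lysosomes, at 47.7 and 39.0 RPKM in untreated cells and 24.8 and 22.3 RPKM after heat shock (log2 change -0.86, SE 0.17, limma adjusted p = 0.035). That call too was lost without any 1 untreated or heat shock library (limma adjusted p of 0.074 to 0.19).

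Srebf2, which encodes SREBP-2, was at 39.2 and 29.7 RPKM in untreated cells, 35.3 and 36.3 RPKM after heat shock, 38.1 and 33.2 RPKM under osmotic stress, and 22.3 and 23.1 RPKM under oxidative stress. Its oxidative stress libraries lay below all others. The change against untreated cells was -0.58 (SE 0.16) and did not pass (limma adjusted p = 0.15), while oxidative stress was lower than heat shock and osmotic stress by a log2 difference of 0.64 in both cases (SE 0.16, limma adjusted p = 0.047 and 0.042). The difference from heat shock was 0.61 to 1.00 over the 4 other scalings and was called in 3 of them. The difference from osmotic stress was called in none of them, at 0.32 with median of ratios (limma adjusted p = 0.13), 0.29 with quantile normalization (limma adjusted p = 0.16) and with the sum without the highest row (limma adjusted p = 0.41), and -0.21, the opposite sign, with the common sum (limma adjusted p = 0.88). Leaving out single libraries raised the adjusted p of the deposited values to as much as 0.19 and 0.16, and without osmotic stress replicate 1 the osmotic difference was 0.54 (limma adjusted p = 0.16). Srebf1, Scap, Insig1 and Insig2 passed in none of the comparisons with untreated cells, and their largest changes were -0.54 for Insig1 under oxidative stress (limma adjusted p = 0.21) and 0.46 for Insig2 under osmotic stress (limma adjusted p = 0.16). Without osmotic stress replicate 1 the Insig2 change was 0.29 (limma adjusted p = 0.49).

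Genes of neighbouring lipid pathways gave 0 calls in the comparisons with untreated cells. Of 10 fatty acid synthesis genes 10 were tested, with medians of -0.42 after heat shock, -0.14 under osmotic stress and -0.58 under oxidative stress. Of 8 genes of the branches from farnesyl diphosphate and mevalonate, such as protein prenylation and ubiquinone synthesis, 8 were tested, with medians of -0.04, 0.23 and -0.15. Of 6 genes of sterol efflux and esterification only 3 were tested, since Abca1, Abcg1 and Ch25h stayed under 0.5 RPKM in every library, with medians of 0.10, 0.16 and -0.09. Of these 3, Nr1h3, which encodes the sterol sensor LXR alpha and is named here after its values were seen, was at 0.859 and 0.532 RPKM under oxidative stress and 0.0131 and 0.0418 RPKM in untreated cells. Its oxidative stress libraries were the highest of the 8, and it passed the filter on low values only through them. The log2 change of 1.17 did not pass (limma adjusted p = 0.054). Without osmotic stress replicate 1 the osmotic stress medians of the 3 groups were -0.19 for fatty acid synthesis, 0.15 for the branches and 0.26 for efflux and esterification. These lists were adjusted over all rows, where 1063 of 16056 were called after heat shock, 111 under osmotic stress and 238 under oxidative stress.

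Across the 8 libraries the genes of the group differed in how closely each followed the mean of the other 7. Pearson's r, over 8 libraries that fall into 4 groups and given as a description, was 0.958 for Mvd, 0.903 for Fdft1, 0.828 for Nsdhl, 0.808 for Sqle, 0.686 for Hmgcs1, 0.685 for Dhcr7, 0.554 for Fdps and 0.273 for Idi1. Pearson's r with the mean of all 8 genes was also taken for 8701 candidate rows with a mean of at least 5 RPKM. The highest were Pdxdc1 (r = 0.981), Mars (0.974), D17H6S53E (0.973), Mpst (0.972), Fbxo6 (0.971) and Uba1 (0.97). Being the top of many rows, these values cannot be compared with those of the 8 genes, each set against the other 7. Uba1, a ubiquitin-activating enzyme, was at 133 and 109 RPKM in untreated cells, 75.1 and 83.5 RPKM after heat shock, 108 and 109 RPKM under osmotic stress, and 72.3 and 89.5 RPKM under oxidative stress. Mars, the methionyl-tRNA synthetase, was at 54.9 and 57.3 RPKM in untreated cells, 33.0 and 43.3 RPKM in heat-shocked cells, 51.7 and 58.0 RPKM under osmotic stress and 37.6 and 45.2 RPKM under oxidative stress.

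**Figure D4:**
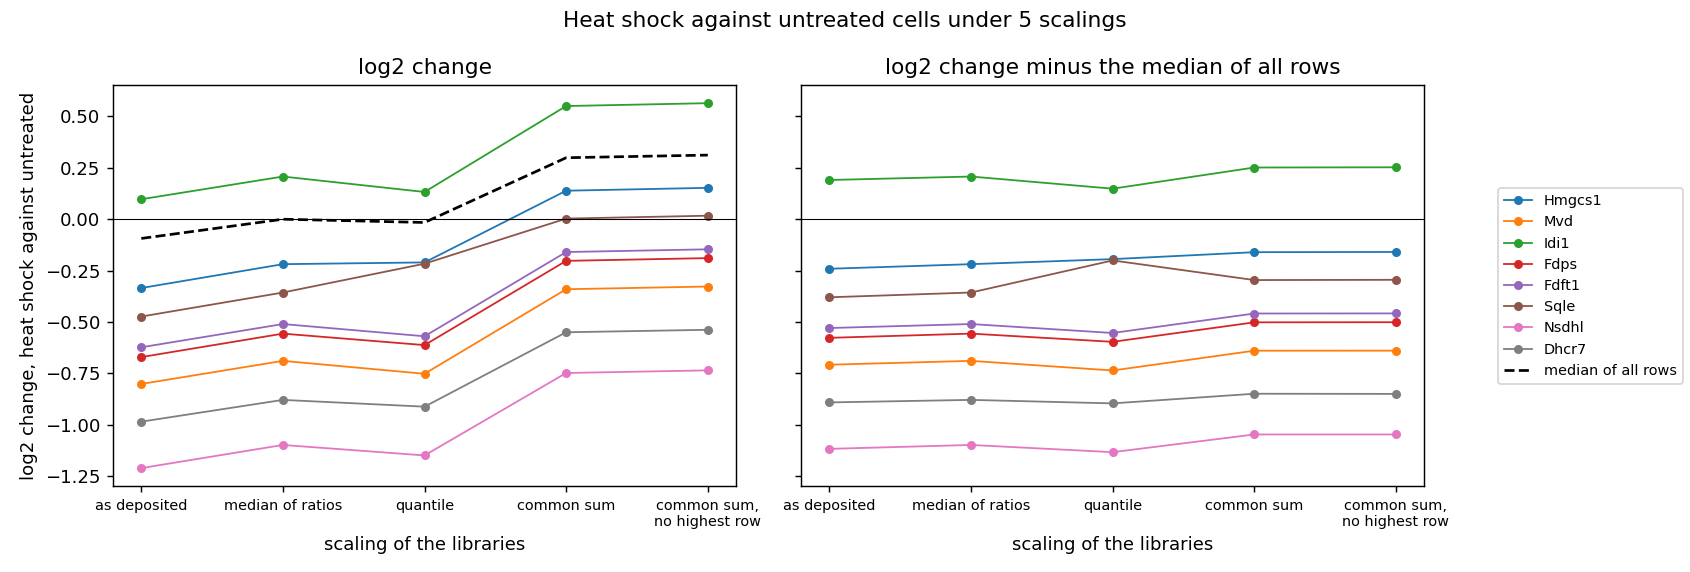
Log2 change after heat shock against untreated cells (y axis) of the 8 genes under 5 scalings of the libraries (x axis), as such on the left and minus the median of all tested rows on the right. The dashed line is that median, from -0.09 as deposited to 0.31 with a common sum without the highest row; relative to it Nsdhl stays between -1.13 and -1.05 and Idi1 between 0.15 and 0.25.

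The size of the changes depended on how libraries were put on a common scale, as the plot of scalings shows. The median of all rows after heat shock was -0.09 in the values as they stood, 0.00 under median-of-ratios scaling, -0.02 with quantile normalization and 0.30 or 0.31 with columns brought to a common sum. With a common sum the heat shock changes were -0.75 for Nsdhl, -0.55 for Dhcr7 and -0.34 for Mvd, none of them called, and Hmgcs1 turned to 0.14 and Sqle to 0.00. Relative to the median of all rows, the heat shock change was -1.13 to -1.05 for Nsdhl, -0.90 to -0.85 for Dhcr7 and -0.74 to -0.64 for Mvd over the 5 scalings. The oxidative stress change of Hmgcs1 was -0.86 to -0.76 on the same relative scale.

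Overlapping gene models limit some values, because the strand counted is not given in the sources used here. In GENCODE M21, Fdft1 overlapped Ctsb, Hmgcs1 overlapped Gm48342, Mvd overlapped Gm20388 and Idi1 overlapped Gm48574, each on the opposite strand, and Fdps overlapped Gm43738 and Gm22935 on its own strand. Reads of these partners could be counted with the 5 genes, and their levels are uncertain to that extent. Sqle, Nsdhl and Dhcr7 overlapped no other gene model.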

How the data were processed

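Nuclear RNA of 8 libraries in 4 groups was measured. Per the labels' protocols, nuclei were pelleted through sucrose, ribosomal RNA was removed, and dUTP kept the strand in the libraries. The tools were Bowtie, SAMtools and Cufflinks and the build mm9, per the submitters' processing notes; for versions, annotation, counted strand and filters, the detail is not given in the sources used here. RPKM for each gene model were deposited by the authors, per the file headers, in 2 tables with 1 library per group each, and 0 columns were left unmatched. Counts are not part of these tables, so depth is unknown and no counting intervals were made.

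From the deposited RPKM, log2(RPKM + 0.5) was computed and the 16056 rows that reached 0.5 RPKM in 2 or more libraries were fitted in 1 model of 4 groups with limma 3.58.1 (R 4.3.3), using moderated variances that follow the mean (2.59 prior and 4 residual degrees of freedom). The 6 comparisons were two-sided and adjusted by Benjamini-Hochberg over all rows. An exact permutation of 2 against 2 libraries cannot go below p = 0.333, and limma therefore borrows the spread across rows and groups. Columns of both tables were compared directly although each table may have been normalized separately; within-table values are given in the text.

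Named genes were the 8 genes, Srebf1, Srebf2, Scap, Insig1 and Insig2, in each stress against untreated cells up to 3 list genes with the largest rise and 3 with the largest fall among those called, and the 6 rows most like the group. The genes and lists were chosen with earlier results of these data known, and some items of the lists are not reported here. Alternatives were other pseudocounts, filters and scalings, fits of 2 groups, no trend, a replicate block, summed rows and leaving out libraries. Promoters came from a RefSeq table of GRCm38.p6, which differs from mm9, so no gene coordinates were taken from it for the counts, and gene overlaps came from GENCODE M21.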

Additional observations from a re-analysis of the deposited data

How the results depend on the processing

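Counts below are in the order heat shock, osmotic stress and oxidative stress against untreated cells, then heat shock against osmotic stress, heat shock against oxidative stress and osmotic against oxidative stress, where 1063, 111, 238, 1316, 2273 and 3101 of all gene models tested and 3, 0, 1, 1, 1 and 2 of the 8 were called. Leaving out single libraries gave, in that order, 73 to 1231, 8 to 777, 11 to 229, 73 to 1138, 107 to 2307 and 14 to 2890 of all gene models, and 0 to 3, 0, 0, 0 to 1, 0 to 1 and 0 to 2 of the 8. Fits of only the 2 groups compared called 241, 2, 5 and 60 of all gene models in the first 4 comparisons and 10 in the last, and 0 of the 8 in every one; with fewer libraries the spread is known less well. Scaling columns to a common sum left 0 of the 8 called in any comparison, and 379 of all gene models after heat shock and 563, 604 and 817 between stresses. Without the highest value of each library in that sum, 0 of the 8 were called in the comparisons but heat shock against oxidative stress, and 2176, 66, 3544 and 756 of all gene models after heat shock, under osmotic stress, in heat shock against oxidative stress and in osmotic against oxidative stress. Median-of-ratios scaling called 421 of all gene models under oxidative stress, 527 and 1659 in the comparisons of osmotic stress with heat shock and with oxidative stress (0 and 1 of the 8), and 2 of the 8 in heat shock against oxidative stress. Quantile normalization gave 547 and 1415 there (0 and 1 of the 8), again 2 of the 8 in heat shock against oxidative stress, and 0 of the 8 under oxidative stress. Without a filter on low values 0 of the 8 were called after heat shock and 880 of all gene models under oxidative stress; with a mean of at least 1 RPKM, 34 of all gene models and 0 of the 8 were called under oxidative stress and 2 of the 8 in heat shock against osmotic stress, as with a pseudocount of 0.1. Without a mean trend 375 of all gene models were called under oxidative stress, and without both osmotic stress libraries, a choice made after seeing the data, 77 of all gene models and 0 of the 8.

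A replicate block raised the counts of all gene models to 2124, 433, 412, 2483, 3836 and 5228, and of the 8 to 3 in heat shock against osmotic stress and to 3 in osmotic against oxidative stress; in the other comparisons the number called among the 8 was as without it. The labels state no shared batch, and on that ground the numbers are not taken as pairs. Same-numbered libraries did deviate together, with r of 0.0624 to 0.264 in 2 pairs per comparison, all above 0. A part shared by the libraries of a number or table was not tested. Over the scalings the median log2 change of the 8 reached -0.17 after heat shock (sum without the highest value) and -0.79 under osmotic stress (common sum). Some signs turned, with the common sum also those of called differences. After heat shock, with a common sum and with that sum without the highest value, the log2 changes became 0.14 and 0.15 for Hmgcs1, 0.0030 and 0.017 for Sqle, 0.35 and 0.37 for Srebf1 and 0.42 and 0.44 for Insig1; Insig1 was at 0.067 with median-of-ratios scaling and 0.029 with quantile normalization. Under osmotic stress the common sum gave -0.55 for Hmgcs1, -0.60 for Mvd and for Srebf2, -0.24 for Idi1, -0.37 for Scap, -0.19 for Insig2 and -0.44 for Npc2. Median-of-ratios scaling, the sum without the highest value and quantile normalization gave -0.094, -0.12 and -0.078 for Hmgcs1, -0.16, -0.18 and -0.17 for Mvd and -0.14, -0.16 and -0.15 for Srebf2, and the second put Npc2 at -0.0019. Under oxidative stress the common sum put Idi1 at 0.015 and Npc2 at 0.037. Between stresses it gave 0.26, 0.32 and 0.25 for Mvd, Nsdhl and Dhcr7 in heat shock against osmotic stress, and -0.025, -0.26 and -0.21 for Mvd, Idi1 and Srebf2 in osmotic against oxidative stress. Leaving out single libraries gave ranges across 0 after heat shock for Idi1 (-0.020 to 0.21), Insig1 (-0.18 to 0.086), Scap (-0.085 to 0.28), Srebf1 (-0.44 to 0.20) and Srebf2 (-0.13 to 0.27). Under osmotic stress they were -0.43 to 0.018 for Dhcr7, -0.33 to 0.017 for Fdft1, -0.81 to 0.057 for Fdps, -0.34 to 0.04 for Insig1, -0.094 to 0.16 for Mvd, -0.34 to 0.30 for Srebf1 and -0.14 to 0.26 for Srebf2. The cause of the shifts was not tested. With 2 libraries a group and no counts, neither counting error nor small changes can be resolved.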

Other observations

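Several genes of cholesterol and fatty acid synthesis that passed in no comparison with untreated cells passed between stresses; those named here were chosen after their values were seen. In these comparisons many rows were called, 19.3% in osmotic against oxidative stress, 14.2% in heat shock against oxidative stress and 8.2% in heat shock against osmotic stress. The medians over all rows were 0.27, -0.01 and -0.26. In the same order, 1, 2 and 3 of the 12 other cholesterol synthesis genes were called. Of the 10 fatty acid synthesis genes, 3, 1 and 0 were called. The genes below were picked from such calls and show no excess over the shares of all rows. The number called in osmotic against oxidative stress was 3101, against 45 without osmotic stress replicate 1 and 14 without oxidative stress replicate 1. Fasn, the fatty acid synthase, was at 65.6 and 42.7 RPKM in untreated cells, 47.2 and 46.5 RPKM after heat shock, 64.3 and 64.9 RPKM under osmotic stress, and 23.9 and 24.8 RPKM under oxidative stress. Its change under oxidative stress was -1.11 (95% interval -1.59 to -0.62) without passing (limma adjusted p = 0.056). Osmotic stress was higher than oxidative stress by a log2 difference of 1.39 (SE 0.20, limma adjusted p = 0.018), and heat shock by 0.93 (SE 0.20, limma adjusted p = 0.032). The first difference without osmotic stress replicate 1 was 1.40 (limma adjusted p = 0.086), and over 4 other scalings it was 0.53 to 1.08 and called in 2. Acaca and Elovl6, which act before and after Fasn in fatty acid synthesis, were also higher under osmotic than oxidative stress, by 0.62 (limma adjusted p = 0.04) and 1.01 (limma adjusted p = 0.047), calls lost without any 1 library and under all 4 other scalings, where Acaca ranged from -0.23 to 0.30 and Elovl6 from 0.28 to 0.85; without osmotic stress replicate 1 the values were 0.56 and 1.04 (limma adjusted p = 0.15 for both). Tm7sf2, a sterol reductase of cholesterol synthesis, was at 4.79 and 4.37 RPKM in untreated cells, 2.79 and 2.74 RPKM after heat shock, 5.34 and 6.22 RPKM under osmotic stress, and 7.00 and 6.27 RPKM under oxidative stress. Heat shock was lower than osmotic stress by -0.94 (SE 0.15, limma adjusted p = 0.022) and lower than oxidative stress by -1.13 (SE 0.15, limma adjusted p = 0.011). The first of these was -1.04 without osmotic stress replicate 1 (limma adjusted p = 0.06), and over 4 other scalings it was -0.67 to 0.05 and called in 0, while the second was -1.17 to -0.82 and called in 2. Pmvk, the phosphomevalonate kinase, was at 10.2 RPKM on average after heat shock and 20.1 RPKM under oxidative stress (log2 difference -0.95, SE 0.22, limma adjusted p = 0.038), a call kept in 2 of 8 fits without a library and 2 of 4 other scalings. Acat2, a thiolase that feeds the pathway, was higher under osmotic stress than after heat shock (log2 difference of heat shock minus osmotic stress -0.61, limma adjusted p = 0.04) and than under oxidative stress (0.55, limma adjusted p = 0.037). Both were fitted without osmotic stress replicate 1 at -0.61 (limma adjusted p = 0.12) and 0.54 (limma adjusted p = 0.13), and both calls were lost under all 4 other scalings, where the sign turned in at least 1. Nr1h3 reached 0.5 RPKM only in the 2 oxidative stress libraries and so entered the test through the group where it is high. Its calls are therefore no support for a difference. Heat shock was lower than oxidative stress by -1.07 (limma adjusted p = 0.024), and osmotic stress by -1.01 (limma adjusted p = 0.027). The pseudocount set the size of these values: the first was -2.24 with a pseudocount of 0.1 and -0.66 with 1, and the second was -2.06 with 0.1.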
